A study of Homo sapiens with 4 samples.

Results

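Thiopurine drugs such as 6-mercaptopurine (6-MP) are prodrugs, and 9 genes that activate or inactivate them, or modify those steps, were followed in Reh-6-MPR cells: HPRT1, IMPDH1, IMPDH2, GMPS, TPMT, PACSIN2, NT5C2, ITPA and XDH. They were chosen by gene symbol for their known roles, with earlier results of these data known. All 9 were found among the 29833 genes of the expression table. Reh-6-MPR descends from Reh, a human cell line of B-cell acute lymphoblastic leukemia (B-ALL), by passage in stepwise rising 6-MP and then kept in drug-free medium before experiments. The labels give the genotype as WT in every sample. For 48 h the cells received PBS as vehicle (labelled Blank), 4 mM histidine, 1.0 μg/mL 6-MP, or the 2 agents together at these doses. The comparison of the 4 treatments asks how expression in resistant cells differs when histidine is added to the drug. Parental, non-resistant Reh cells were not analysed here, so every value describes the resistant line, and each of the 4 treatments is represented by 1 library.

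In the cell, HPRT1 joins 6-MP to a ribose phosphate and so makes thioinosine monophosphate. IMPDH1 and IMPDH2, isoenzymes of inosine monophosphate dehydrogenase, oxidise it, and GMPS aminates the product to thioguanosine monophosphate, from which kinases and ribonucleotide reductase make the thioguanine nucleotides that are built into DNA. TPMT methylates 6-MP and its nucleotides, XDH oxidises 6-MP to thiouric acid, NT5C2 removes the phosphate from the monophosphates, and ITPA hydrolyses thioinosine triphosphate. PACSIN2, a membrane-bending protein, is known as a modifier of TPMT activity. Activating mutations of NT5C2 are known from relapsed ALL; sequence changes were not analysed here, only RNA levels.

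Levels are given as deposited, in FPKM, the fragments of a gene scaled to its length and to the reads of its library. The values of each gene step by whole reads, so the reads behind them were recovered, for 29832 of 29833 genes, together with library totals of 12899122 to 15486376 reads. The combined treatment had the lowest total and the most genes above 0, 25443 against 23635 to 23978 in the other 3 libraries. B-lineage markers were present throughout: 10 of 11 were in the table, each between 11.8 and 625 FPKM, and their sum ranged from 1568 to 1658 FPKM. Of the 4 monocyte and granulocyte markers in the table, MPO was at 41.0 FPKM for the combined treatment and 26.4 to 30.5 elsewhere. CSF1R ranged from 0.430 to 1.25 FPKM, LYZ from 0.0375 to 1.39 and CD14 from 0.0392 to 0.170. NKG7, a T and NK marker, was at 1.13 to 3.62 FPKM, and the 3 erythroid markers in the table summed to at most 0.492 FPKM. Without replicate libraries no test is possible, and the 95% intervals below, exact Poisson intervals for a level and exact conditional (Clopper-Pearson) intervals for a ratio of reads, cover counting error only. A difference outside its interval distinguishes libraries, not treatments, and in bulk RNA fewer cells of a type and less RNA per cell cannot be told apart.

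The start regions of 4 of these genes are shown as examples, for XDH, which was almost silent, and for HPRT1, TPMT and PACSIN2, which were expressed. Each is the stretch of 250 bases just before the RefSeq start (GRCh38.p14) that coincides with the deposited start of the gene, read 5′ to 3′ along the gene, with matches to the GC box GGGCGG or to CCAAT, on either strand, in capitals. The windows are HPRT1 at chrX:134459915-134460164 (plus strand), TPMT at chr6:18155078-18155327 (minus strand), PACSIN2 at chr22:43015150-43015399 (minus strand) and XDH at chr2:31414743-31414992 (minus strand).
HPRT1: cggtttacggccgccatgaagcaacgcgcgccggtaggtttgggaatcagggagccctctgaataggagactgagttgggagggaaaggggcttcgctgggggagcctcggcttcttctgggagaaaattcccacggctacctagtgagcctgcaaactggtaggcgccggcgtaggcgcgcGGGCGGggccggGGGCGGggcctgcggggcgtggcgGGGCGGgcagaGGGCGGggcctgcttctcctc
TPMT: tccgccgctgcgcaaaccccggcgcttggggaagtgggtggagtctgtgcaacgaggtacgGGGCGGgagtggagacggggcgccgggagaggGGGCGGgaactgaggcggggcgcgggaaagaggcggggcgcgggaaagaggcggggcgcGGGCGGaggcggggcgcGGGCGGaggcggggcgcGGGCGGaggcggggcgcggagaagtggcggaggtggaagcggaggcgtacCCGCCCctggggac
PACSIN2: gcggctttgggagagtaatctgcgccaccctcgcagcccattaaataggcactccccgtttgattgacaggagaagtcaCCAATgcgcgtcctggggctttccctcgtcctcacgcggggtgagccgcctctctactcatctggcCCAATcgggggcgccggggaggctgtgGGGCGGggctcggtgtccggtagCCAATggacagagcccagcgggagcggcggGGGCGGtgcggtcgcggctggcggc
XDH: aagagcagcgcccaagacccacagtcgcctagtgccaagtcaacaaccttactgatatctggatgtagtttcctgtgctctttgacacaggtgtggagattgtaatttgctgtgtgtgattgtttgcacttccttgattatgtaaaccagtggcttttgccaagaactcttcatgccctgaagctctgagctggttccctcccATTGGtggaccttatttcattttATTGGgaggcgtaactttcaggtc
The GC content was 68.8% for HPRT1, 78.4% for TPMT, 68% for PACSIN2 and 46.4% for XDH, where the median over all RefSeq windows of this kind was 58%. Low GC content was not particular to XDH: RefSeq gives 5 further starts for PACSIN2, with 46.4% to 50% GC and no GC box. It gives 3 for NT5C2, 2 of them without a GC box and the lowest at 28% GC. These 2 are not transcript starts of the GENCODE 29 annotation, while the 3rd is, with 73.6% GC and 4 GC boxes. The starts of the 4 windows shown are not GENCODE 29 transcript starts either. HPRT1 held 4 GC boxes, TPMT 6, PACSIN2 2 and XDH 0, while PACSIN2 had 3 and XDH 2 matches to CCAAT and HPRT1 and TPMT had none. No capitals overlap one another, and neither CACGTG nor TATAAA occurred in any of the 4. Among 35116 windows of this length, GGGCGG was present in 42.6%, CCAAT in 32.0%, TATAAA in 10.7% and CACGTG in 6.34%. These matches describe letters and are not evidence of binding; in all, 8 of the 9 genes matched the RefSeq table.

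**Figure D1:**
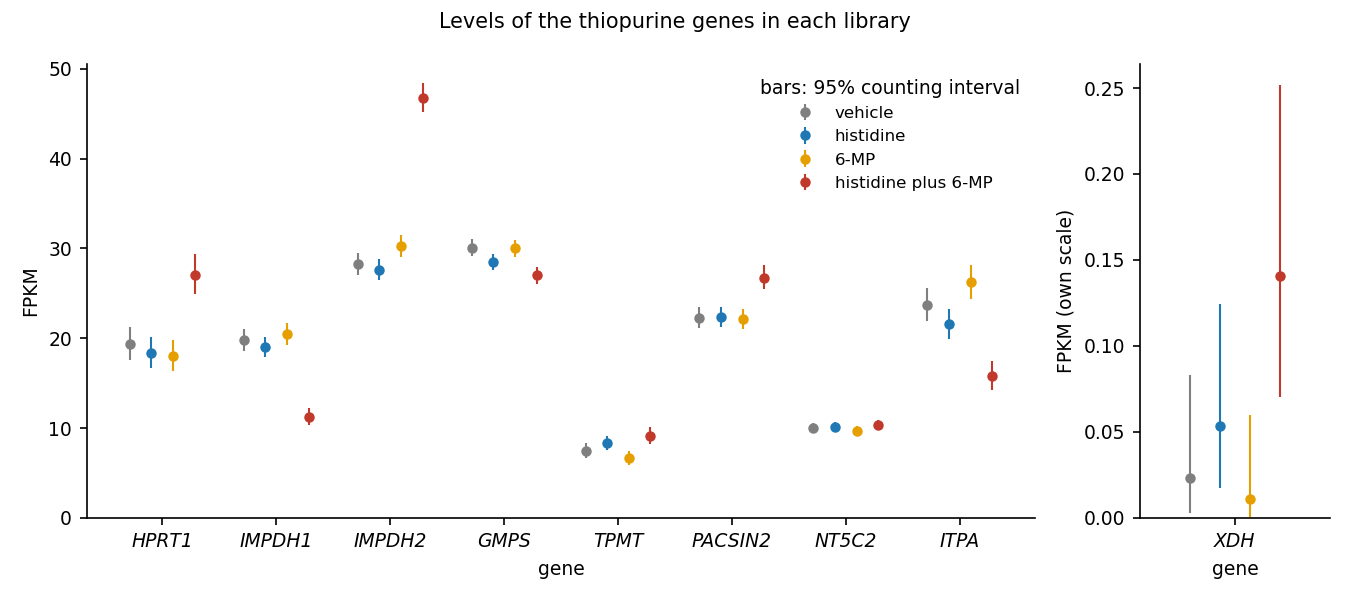
FPKM of the 9 genes (y axis) in each of the 4 libraries, with bars for the 95% counting interval and XDH on its own scale. IMPDH2 reached 46.8 FPKM with histidine plus 6-MP against at most 30.3 elsewhere, and IMPDH1 was at 11.3 against at least 19.0.

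With vehicle the highest level of the 9 belonged to GMPS (30.1 FPKM) and IMPDH2 (28.3 FPKM), whose intervals overlapped, followed by ITPA (23.7) and PACSIN2 (22.3), which overlapped as well. IMPDH1 and HPRT1 came next at 19.8 and 19.3 FPKM and did not differ beyond counting error, with NT5C2 at 9.95, TPMT at 7.48 and XDH at 0.0230 FPKM below them. With the combined treatment the order was another: IMPDH2 stood alone at the top, HPRT1, GMPS and PACSIN2 lay together at 26.8 to 27.1 FPKM, and IMPDH1 at 11.3 FPKM had moved down beside NT5C2 at 10.3, whose interval overlapped those of IMPDH1 and of TPMT at 9.15, although these 2 did not overlap each other. In this scale 2 genes depend on the length used. The values imply 5123 bases for IMPDH2, its whole span, and 9137 for NT5C2, where the exons of GENCODE 29 cover 2773 and 5156 bases. The same reads over exon lengths would raise both genes against the others in every library alike. Whether some of these reads lie outside those exons was not tested. For the remaining 7 genes the implied and annotated lengths were close, from 1942 against 2071 bases for ITPA to 3662 in both for IMPDH1.

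HPRT1 (ENSG00000165704, chromosome X, 134460165 to 134520513, plus strand), the enzyme of the first activating step, was at 19.3 FPKM with vehicle, 18.3 with histidine, 18.0 with 6-MP alone and 27.1 with both agents (446, 458, 446 and 563 reads). The first 3 libraries had overlapping intervals, and the combined treatment, with an interval of 24.9 to 29.4 FPKM, lay above all of them. Its reads per library total were 1.40 times those of vehicle (1.24 to 1.59), 1.48 times those of histidine (1.30 to 1.67) and 1.50 times those of 6-MP (1.32 to 1.70). On the log2(FPKM + 1) scale, used for all fold changes here, the differences were 0.47, 0.54 and 0.56. HPRT1 thus lay above 78.4% of the 12750 genes tested, those averaging 1 FPKM or more, in the comparison with vehicle.

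IMPDH1 (ENSG00000106348, chromosome 7, 128392277 to 128410252, minus strand) had the lowest fold change of the set. Its level was 19.8 FPKM with vehicle, 19.0 with histidine, 20.5 with 6-MP alone and 11.3 with both agents (1039, 1078, 1149 and 532 reads). Only the combined library stood apart, and its interval of 10.3 to 12.3 FPKM did not reach any of the others. The read ratio was 0.568 to vehicle (0.511 to 0.631), 0.592 to histidine (0.533 to 0.658) and 0.551 to 6-MP (0.496 to 0.611). The log2 fold changes were -0.76, -0.71 and -0.81, and 3.06%, 3.63% and 2.22% of the genes tested lay lower still. The processed pseudogene IMPDH1P8 had 15, 24, 27 and 32 reads in the same order of libraries, and IMPDH1P4 and IMPDH1P6 had 6 and 10 over all libraries. Their similarity to IMPDH1 was not examined. How any reads shared with them were assigned is not given in the sources used here.

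IMPDH2 (ENSG00000178035, chromosome 3, 49024325 to 49029447, minus strand), the isoform known to be raised in proliferating cells, showed the opposite direction. It was at 28.3 FPKM with vehicle, 27.6 with histidine, 30.3 with 6-MP alone and 46.8 with both agents (2073, 2191, 2381 and 3092 reads). Again the combined library lay apart from the other 3, with an interval of 45.2 to 48.5 FPKM. The read ratio was 1.66 to vehicle (1.57 to 1.75), 1.69 to histidine (1.60 to 1.79) and 1.55 to 6-MP (1.46 to 1.63), and the log2 fold changes were 0.71, 0.74 and 0.61. IMPDH2 was also the only one of the 9 genes that 6-MP alone placed above vehicle beyond counting error, by a ratio of 1.07 (1.01 to 1.14) and a log2 fold change of 0.10.

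Taken per library, the sum of IMPDH1 and IMPDH2 was 48.1 FPKM with vehicle, 46.6 with histidine, 50.7 with 6-MP alone and 58.1 with both agents. IMPDH1 made up 41.2%, 40.8%, 40.3% and 19.4% of it, or 27.5%, 27.1%, 26.8% and 11.5% with the exon lengths of GENCODE 29. By both lengths the share was lowest in the combined library and close together in the other 3. The sum was highest in the combined library as deposited, and also after scaling by the median ratio of the genes tested, 52.1 against 50.4 with 6-MP. With a median ratio over all genes above 0 it was 49.0 there and 50.5 with 6-MP. All these sums use the lengths that the FPKM values imply.

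GMPS (ENSG00000163655, chromosome 3, 155870650 to 155944020, plus strand), which completes the thioguanosine monophosphate, was at 30.1, 28.5, 30.0 and 27.0 FPKM with vehicle, histidine, 6-MP and both (3773, 3865, 4036 and 3053 reads). The combined treatment was lowest, and its reads were 0.898 times those of vehicle (0.856 to 0.942), 0.948 times those of histidine (0.904 to 0.995) and 0.900 times those of 6-MP (0.858 to 0.943). Histidine alone was also below vehicle, with a log2 fold change of -0.08. For the combined treatment the log2 fold changes were small, -0.15, -0.07 and -0.15, and 24.1% of genes lay below GMPS against vehicle. A lncRNA (ENSG00000288032) that overlaps it on the same strand had at most 6 reads.

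TPMT (ENSG00000137364, chromosome 6, 18128311 to 18155077, minus strand), the methylating enzyme whose inherited deficiency is known for thiopurine toxicity, had the lowest level of the 8 expressed genes. It was at 7.48 FPKM with vehicle, 8.31 with histidine, 6.63 with 6-MP alone and 9.15 with both agents (341, 410, 324 and 376 reads). The level interval of the combined treatment, 8.25 to 10.1 FPKM, overlapped that of histidine and, narrowly, that of vehicle (6.71 to 8.32). To histidine the read ratio was 1.10 (0.955 to 1.27), within counting error. Against vehicle the ratio was 1.22 (1.05 to 1.42) and against 6-MP 1.38 (1.19 to 1.61), for log2 fold changes of 0.26 and 0.41. After scaling by the median ratio of the genes tested, the interval against vehicle included 0, and that against 6-MP did not. The spread of TPMT among the 3 other libraries was the widest of the 8, with the highest 1.25 times the lowest. The pseudogenes TPMTP1 and TPMTP2 had 1 and 2 reads over all libraries.

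PACSIN2 (ENSG00000100266, chromosome 22, 42835412 to 43015149, minus strand) was nearly level in the first 3 libraries, at 22.3 FPKM with vehicle, 22.4 with histidine and 22.1 with 6-MP, and was at 26.8 with both agents (1454, 1580, 1547 and 1573 reads). The combined library lay above the others, with read ratios of 1.20 to vehicle (1.12 to 1.29), 1.20 to histidine (1.11 to 1.28) and 1.21 to 6-MP (1.13 to 1.30). In log2 terms these were 0.25, 0.25 and 0.26, close to the middle of all genes: 61.8% of the genes tested lay below PACSIN2 against vehicle. With a median ratio taken over all genes above 0, the intervals of all 3 comparisons included 0. ARFGAP3, on the same strand and overlapping it by 22695 bases, was at 12.4, 11.2, 11.6 and 15.9 FPKM, also highest with the combined treatment, and the part of shared reads in the PACSIN2 values was not tested.

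NT5C2 (ENSG00000076685, chromosome 10, 103087185 to 103277605, minus strand) is the cytosolic nucleotidase that removes the phosphate from the monophosphates. It was the most even of the 8 expressed genes in FPKM as deposited. Its level was 9.95 FPKM with vehicle, 10.1 with histidine, 9.68 with 6-MP alone and 10.3 with both agents (1302, 1434, 1357 and 1215 reads). All 4 intervals overlapped. The read ratio of the combined treatment was 1.04 to vehicle (0.957 to 1.12), 1.02 to histidine (0.942 to 1.10) and 1.06 to 6-MP (0.985 to 1.15), so that a ratio above 1.15 lay outside all 3 intervals. The log2 fold changes of 0.05, 0.02 and 0.08 turned to -0.10, -0.10 and -0.05 when libraries were scaled by the median ratio of the genes tested, and with that ratio taken over all genes above 0 the intervals lay below 0. CNNM2 and other genes overlap NT5C2 on the opposite strand; the kit marks strand, and the strand setting of the counting is not given in the sources used here.

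ITPA (ENSG00000125877, chromosome 20, 3208868 to 3223870, plus strand), the pyrophosphatase that clears thioinosine triphosphate, was at 23.7 FPKM with vehicle, 21.6 with histidine, 26.2 with 6-MP alone and 15.8 with both agents (658, 649, 781 and 396 reads). The combined library was lowest and its interval, 14.3 to 17.4 FPKM, was separate from the rest. The single agents lay on either side of vehicle, with ratios of 0.912 (0.817 to 1.02) for histidine and 1.11 (0.997 to 1.23) for 6-MP, neither beyond counting error. For the combined treatment the ratio was 0.668 to vehicle (0.588 to 0.758), 0.733 to histidine (0.645 to 0.831) and 0.603 to 6-MP (0.533 to 0.681), or log2 fold changes of -0.55, -0.43 and -0.70. Of the genes tested, 6.15% were lower against vehicle and 3.25% against 6-MP.

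XDH (ENSG00000158125, chromosome 2, 31334321 to 31414742, minus strand), xanthine dehydrogenase, is best known from liver and gut. It had 2 reads with vehicle, 5 with histidine, 1 with 6-MP alone and 11 with both agents, or 0.0230, 0.0532, 0.0107 and 0.141 FPKM. A level of 3 reads, taken as the floor, corresponds to 0.0320 to 0.0384 FPKM, so vehicle and 6-MP lay below it, and XDH was the 1 gene of the 9 that did not pass the filter. The combined treatment had the most reads, with a ratio of 6.10 to vehicle (1.33 to 56.7), 13.1 to 6-MP (1.90 to 563) and 2.64 to histidine (0.846 to 9.70). Beside it, of 1108 protein-coding genes with 10 to 30 reads in all, 60.1% had their highest FPKM in the combined library. The other oxidising enzyme of thiopurines, AOX1, was at 0.0573 to 0.107 FPKM.

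**Figure D2:**
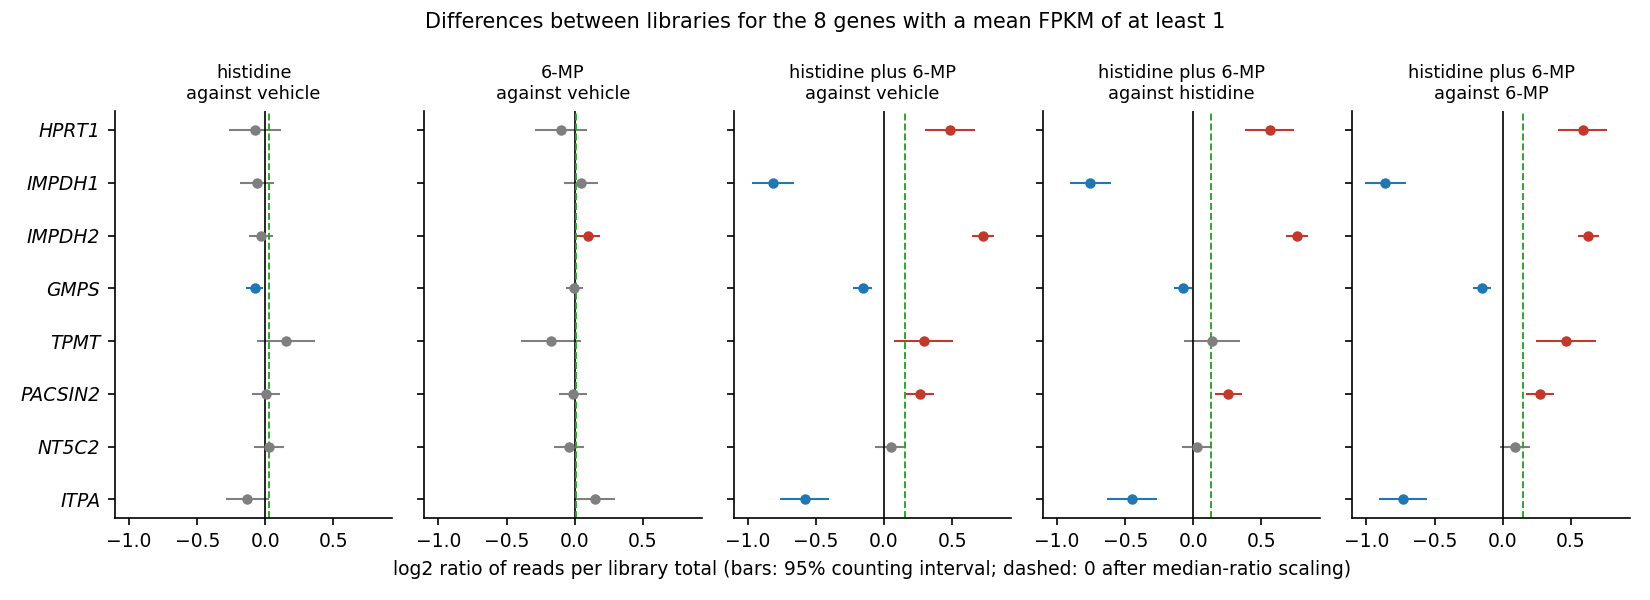
Log2 ratio of reads per library total (x axis) for the 8 genes that averaged 1 FPKM or more, in each of the 5 comparisons, with 95% counting intervals, red above 0, blue below 0 and grey where 0 is included; the dashed line is 0 after median-ratio scaling. The single agents leave nearly all intervals across 0, and the combined treatment separates IMPDH2 and HPRT1 from IMPDH1 and ITPA.

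Counted together, 0 of the 8 genes tested differed by 1 or more on the log2 scale, in either direction, in the 5 comparisons. Over the 12750 genes tested, which are meant by all genes in these counts, the share was 1.33% for histidine against vehicle, 1.18% for 6-MP against vehicle, and 6.53%, 5.55% and 6.02% for the combined treatment against vehicle, histidine and 6-MP. At a threshold of 0.5 the single agents again placed 0 of 8 past it, where 4.86% and 4.72% of all genes were. The combined treatment placed IMPDH2 higher and IMPDH1 and ITPA lower than vehicle, 1 gene up and 2 down beside 19.7% of all genes up and 7.37% down (27.1% in either direction). Against histidine, IMPDH2 and HPRT1 were higher and IMPDH1 lower, beside 17.8% and 7.53% of all genes (25.4% together). Against 6-MP, IMPDH2 and HPRT1 were higher and IMPDH1 and ITPA lower, beside 19.3% and 6.88% (26.2% together). Median-ratio scaling made the split of all genes more even, 14.0% higher and 11.6% lower against vehicle. It was 12.8% and 11.3% against histidine, and 13.6% and 10.9% against 6-MP. The genes past the threshold against vehicle stayed the same. Against histidine HPRT1 no longer passed, at 0.41, and ITPA did, at -0.55. Against 6-MP IMPDH2 and HPRT1 no longer passed, at 0.47 and 0.42, while IMPDH1 and ITPA did, at -0.94 and -0.83. These comparisons share the combined library, and those with vehicle share the vehicle library.

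By counting error, 1 of the 8 genes tested differed from vehicle with histidine alone (GMPS, lower, as were 8.73% of all genes; 21.7% in either direction) and 1 with 6-MP alone (IMPDH2, higher, as were 10% of all genes; 18% in either direction). With the combined treatment 7 of 8 differed from vehicle (63.6% of all genes), 6 from histidine (63.3%) and 7 from 6-MP (63.5%). XDH, which was not tested, also had intervals above 0 against vehicle and 6-MP. HPRT1, IMPDH2 and PACSIN2 were above all 3 other libraries, as were 34.3% of all genes, and GMPS, IMPDH1 and ITPA were below all 3, as were 16.6%. The remaining TPMT, NT5C2 and XDH were neither. By this measure most of the genes tested differed between the combined library and each of the others.

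**Figure D3:**
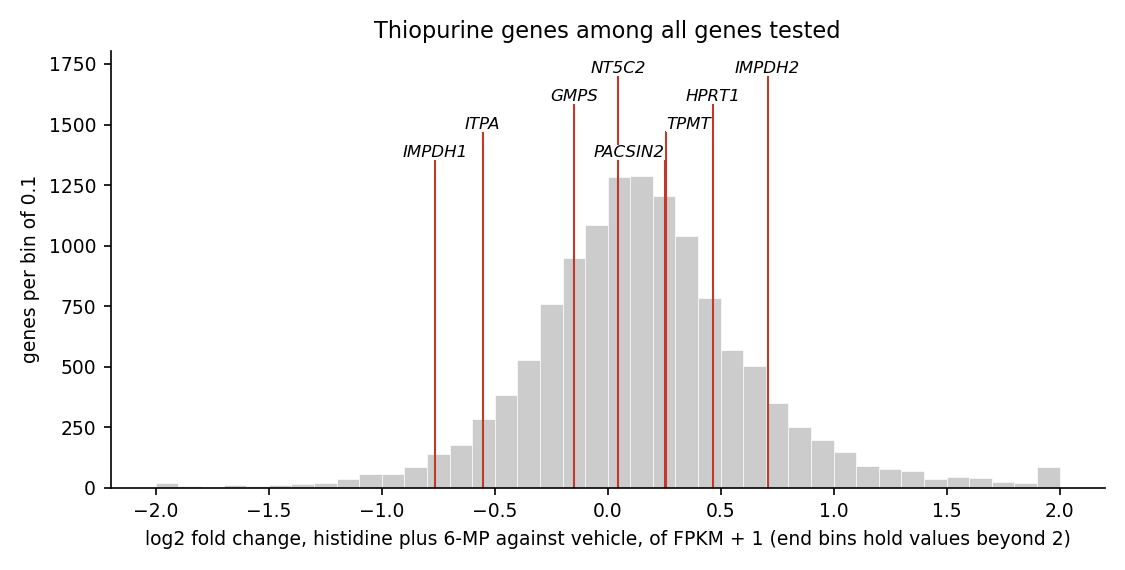
Number of genes (y axis, bins of 0.1) by log2 fold change of the combined treatment against vehicle, with the 8 genes tested as red lines. IMPDH1 at -0.76 and IMPDH2 at 0.71 lie towards either tail, and NT5C2 at 0.05, TPMT at 0.26 and PACSIN2 at 0.25 lie near the bulk.

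The median log2 fold change of the 8 genes was 0.15 against vehicle, 0.07 against histidine and 0.17 against 6-MP, where all genes tested had 0.13, 0.11 and 0.13. For the single agents the medians were -0.04 with histidine and -0.01 with 6-MP, and 0.01 and 0.004 over all genes. Scaling by the median ratio shifts the combined library by 0.16 log2 against vehicle. After it, HPRT1 and IMPDH2 were still higher than vehicle, by 0.32 and 0.55, TPMT and PACSIN2 by 0.12 and 0.10, while GMPS, IMPDH1 and ITPA were at -0.30, -0.91 and -0.70. The activating enzymes stood on both sides, HPRT1 and IMPDH2 higher and IMPDH1 and GMPS lower.

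**Figure D4:**
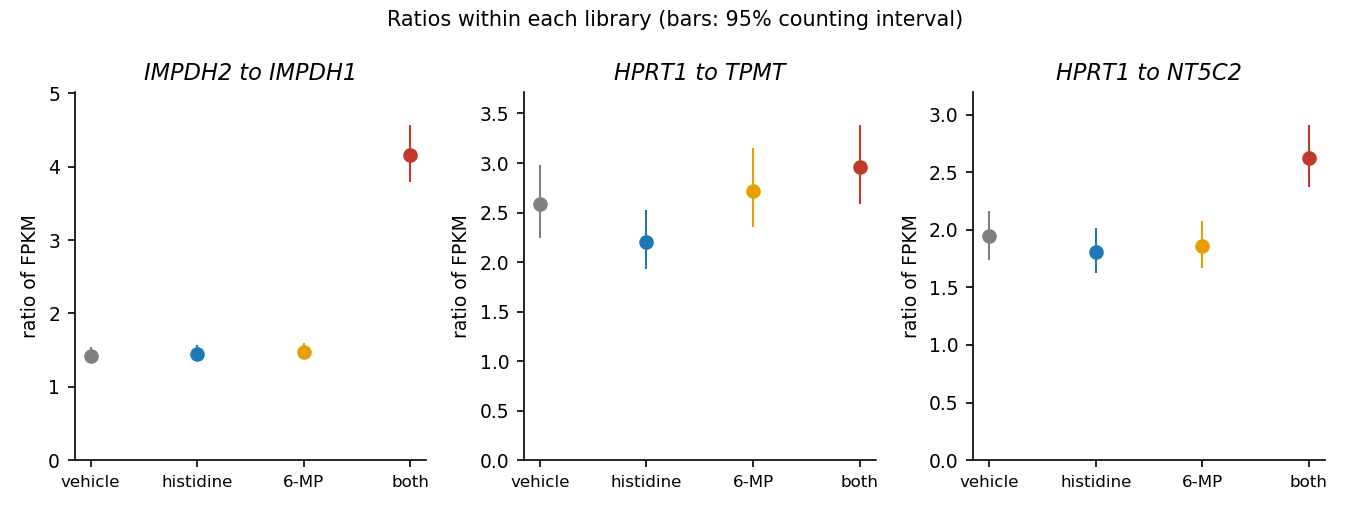
Ratio of FPKM within each library (y axis from 0) for 3 pairs of genes, with 95% counting intervals. The ratio of IMPDH2 to IMPDH1 is 1.43 to 1.48 in 3 libraries and 4.15 with the combined treatment, while that of HPRT1 to TPMT has overlapping intervals for vehicle, 6-MP and both.

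A ratio of 2 genes within a library does not depend on the scaling between libraries. The ratio of IMPDH2 to IMPDH1, which catalyse the same step, was 1.43 with vehicle, 1.45 with histidine and 1.48 with 6-MP, while both agents gave 4.15 (3.79 to 4.56), or 2.91 times that of vehicle. With the exon lengths of GENCODE 29 all 4 ratios would be larger, 7.68 with the combined treatment against 2.63 with vehicle, and the 2.91 times would not change. The ratio of HPRT1 to TPMT, which use the same substrate, was 2.58 (2.24 to 2.98), 2.21 (1.93 to 2.53), 2.72 (2.35 to 3.15) and 2.96 (2.59 to 3.38) with vehicle, histidine, 6-MP and both agents, respectively. The combined treatment overlapped vehicle and 6-MP and lay just above histidine. HPRT1 to NT5C2, an enzyme that makes the monophosphate against one that removes its phosphate, was 1.94 (1.74 to 2.16), 1.81 (1.63 to 2.01), 1.86 (1.67 to 2.07) and 2.63 (2.37 to 2.90) in the same order. Here the combined treatment was above all 3 others. With the same reads over the exon lengths of GENCODE 29 these ratios would be 1.09, 1.01, 1.04 and 1.47.

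The 4 libraries form a layout of each agent with and without the other. The departure from additivity, that is the log2 difference between both agents and histidine alone less the difference between 6-MP alone and vehicle, was 0.64 for IMPDH2, 0.63 for HPRT1, 0.28 for TPMT, 0.26 for PACSIN2 and 0.06 for NT5C2. It was -0.07 for GMPS, -0.57 for ITPA and -0.75 for IMPDH1. In all, 4 of the 8 departed by at least 0.5 (27.3% of all genes), 2 in each direction, and their median was 0.16 against 0.11 over all genes. After median-ratio scaling NT5C2 turned to -0.05 and the other 7 kept their sign. With 1 library in each cell of the layout the departure has no error term.

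**Figure D5:**
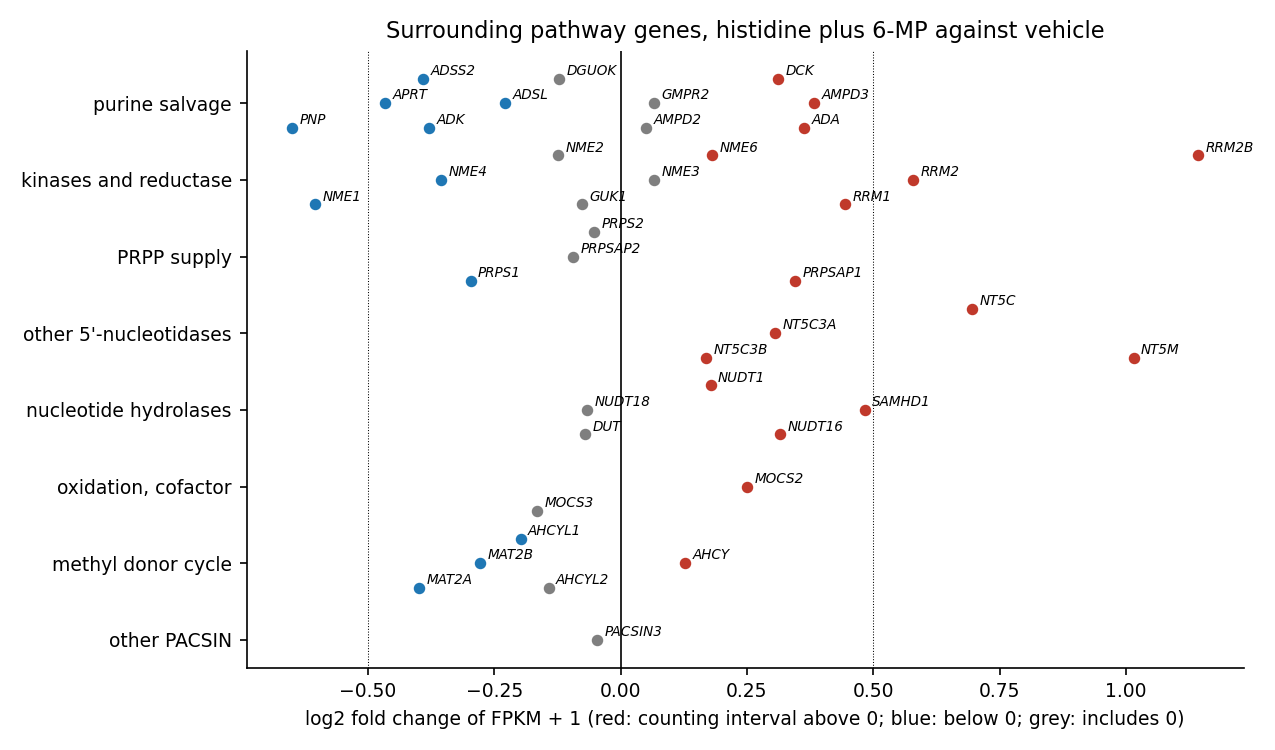
Log2 fold change of FPKM + 1 for the combined treatment against vehicle (x axis) of 41 genes of the surrounding pathway in 8 lists (y axis), red where the counting interval is above 0, blue below and grey where it includes 0; dotted lines mark 0.5 in either direction. RRM2B and NT5M lie past 1, and PNP and NME1 are lowest.

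Around these enzymes, 8 lists of 55 genes cover salvage, kinases and reductase, phosphoribosyl pyrophosphate (PRPP) supply, nucleotidases, nucleotide hydrolases, oxidation, methyl donors and the other PACSIN genes; 51 were in the table and 41 were tested. Against vehicle, the combined treatment placed 2 of the 41 past a log2 fold change of 1, both higher (6.53% of all genes in either direction); after median-ratio scaling neither passed, with RRM2B at 0.999 and NT5M at 0.89. By counting error 17 were higher and 11 lower, where all genes had 42.7% and 20.8%; after median-ratio scaling 11 were higher and 19 lower, beside 30.2% and 30.8% of all genes. Their median log2 fold change was -0.05, below the 0.13 of all genes.

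Of the 5 nucleotide hydrolases 3 were higher than vehicle by counting error (42.7% of all genes) and 0 lower (20.8%). After median-ratio scaling it was 2 and 1 (30.2% and 30.8%). SAMHD1, a deoxynucleotide triphosphohydrolase, was low in all libraries, 0.980, 0.882, 0.776 and 1.77 FPKM, with the highest in the combined one, at a log2 fold change of 0.48 against vehicle. DUT, at -0.07, was the lowest of the list.

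All 4 other nucleotidases tested were higher than vehicle beyond counting error, as were 42.7% of all genes, against NT5C2 at 0.05. After median-ratio scaling 2 of them were still so, beside 30.2% of all genes. NT5M, the mitochondrial deoxyribonucleotidase, was at 1.96, 2.70, 2.23 and 4.98 FPKM, and NT5C, its cytosolic relative, at 4.24, 4.04, 4.34 and 7.48 FPKM. For both the combined library was highest, with log2 fold changes of 1.02 and 0.70. NT5C3B, at 0.17, had the smallest difference of the list. Its level interval in the combined library, 20.1 to 23.1 FPKM, overlapped those of histidine and 6-MP and, narrowly, that of vehicle (17.7 to 20.4).

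Among the 9 kinases and reductase subunits, 4 were higher (42.7% of all genes) and 2 lower (20.8%) than vehicle by counting error. After median-ratio scaling it was 3 and 3 (30.2% and 30.8%). The 3 reductase subunits were all higher, RRM2B (the subunit known as a p53 target) at 7.22, 7.25, 7.39 and 17.2 FPKM, RRM2 at 45.6, 43.3, 48.2 and 68.6 FPKM, and RRM1 at a log2 fold change of 0.45 (RRM1 was named after its values were seen). For RRM2B the log2 fold changes were 1.14, 1.14 and 1.11 against vehicle, histidine and 6-MP, where NT5M had 1.02, 0.69 and 0.89. Of the nucleoside diphosphate kinases, NME1 was at -0.61, NME4 at -0.36 and NME2 at -0.12 with an interval that included 0, against vehicle, while NME6 (named after its values were seen) was higher, at 0.18. NME4 was also higher than vehicle with each single agent, at 54.8 FPKM with histidine and 55.5 with 6-MP against 48.0 with vehicle and 37.3 with both. NME2 was at 1.71 FPKM with histidine against 0.868 with vehicle, 0.940 with 6-MP and 0.714 with both (66, 31, 36 and 23 reads). NME1 and NME2 are neighbours of related sequence, and how reads that match both were assigned was not tested. Their counts, 2.29 to 4.01 and 0.714 to 1.71 FPKM, are therefore uncertain.

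Of 11 salvage genes 5 were lower (20.8% of all genes) and 3 higher (42.7%) than vehicle. After median-ratio scaling it was 6 and 3 (30.8% and 30.2%). PNP, the purine nucleoside phosphorylase, was the lowest at 13.5, 13.4, 13.2 and 8.21 FPKM, for log2 fold changes of -0.65, -0.64 and -0.62. APRT, the adenine counterpart of HPRT1, was at 40.8, 37.7, 43.3 and 29.3 FPKM, so that the 2 phosphoribosyltransferases differed in direction, with HPRT1 at 0.47 and APRT at -0.47 against vehicle. AMPD3 was the highest of the 11, at 0.38.

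PRPP supply, which feeds the HPRT1 step, had 1 of 4 genes higher (42.7% of all genes) and 1 lower (20.8%). These were PRPSAP1, a synthetase-associated protein, at 0.35, and PRPS1, a PRPP synthetase, at -0.30. After median-ratio scaling 1 of the 4 was higher (30.2%) and 3 were lower (30.8%). In the methyl donor cycle that serves TPMT, 3 of 5 genes were lower (20.8% of all genes) and 1 higher (42.7%). After median-ratio scaling it was 4 and 0 (30.8% and 30.2%). MAT2A, which makes S-adenosylmethionine, was at 158, 175, 158 and 119 FPKM, lowest in the combined library, with log2 fold changes of -0.40, -0.54 and -0.40. AHCY was the highest of that list at 0.13. Of the molybdenum cofactor genes that XDH depends on, MOCS2 was at 0.25 and MOCS3 at -0.17 against vehicle, the second with an interval that included 0, and PACSIN3 was at -0.05, also within counting error. After median-ratio scaling MOCS2 was within counting error, and MOCS3 and PACSIN3 were lower, at -0.27 and -0.19.

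The genes most like the 2 extremes were sought among 6735 protein-coding genes that averaged 5 FPKM or more, by the Euclidean distance over the log2 fold changes of the 3 treatments against vehicle. Nearest to IMPDH2 were COX7A2L, PYCARD and SARAF, at distances of 0.025 to 0.035 and with 0.71, 0.71 and 0.68 for the combined treatment. Nearest to IMPDH1 were YWHAG, CCNB2 and SRM, at 0.031 to 0.042 and with -0.79, -0.79 and -0.78. Within a distance of 0.1 there were 47 genes for IMPDH2 and 37 for IMPDH1. Each pattern rests on 4 libraries.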

How the data were processed

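RNA from 4 treatments of Reh-6-MPR cells, 1 library each, was prepared with a stranded mRNA kit. A commissioned company did the sequencing and quantification, and the authors deposited FPKM values per gene with symbols and GRCh38 positions. The submitters' processing notes name Trimmomatic, HISAT2, Cufflinks and HTSeq, with hg38; versions, annotation release and strand setting are not given in the sources used here. Samples were grouped by their labels.

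Reads were recovered from the FPKM steps (whole within 0.01 reads), with library totals of 12899122 to 15486376 reads; 16452 genes had their GENCODE 29 length and 13380 a length taken from the steps, where a multiplier of at most 6 was allowed. The recovered reads summed to 100.3% of each total, an excess whose source was not tested. Fold changes are differences of log2(FPKM + 1), which understates those of low genes, over the 12750 genes that averaged 1 FPKM or more. The authors' DESeq2 test was not repeated, since no library has a replicate.

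The 9 genes, the pathway and marker lists and the naming rule were chosen with earlier results of these data known. Pathway genes that averaged 1 FPKM or more were named when they differed by 0.5 log2 or more in a comparison of the combined treatment, or as the highest or lowest of a list. The neighbours are the 3 nearest protein-coding genes of the highest and the lowest of the 9. MTAP, AMPD1, GDA and MOCS1 were not analysed here. A further gene of the lists is not reported here. The alternatives were a pseudocount of 0.1, filters of 0 and 5 FPKM, TPM and median-ratio scaling, a threshold of 0.5 and protein-coding genes as background; median-ratio scaling over all genes above 0, ratios of reads without a pseudocount and GENCODE 29 lengths were added after seeing the data. Scripts were tested on simulated data (scipy 1.17.1, pandas 2.3.3, numpy 2.4.6, matplotlib 3.10.9, Python 3.11.15).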

Additional observations from a re-analysis of the deposited data

How the results depend on the processing

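No paired analysis was possible because the labels give no replicate numbers and no treatment has a 2nd library; leaving out a replicate did not apply. With a pseudocount of 0.1 or TPM scaling, none of the 54 fold changes and additivity values of the 9 genes moved by more than the counting error, and with ratios of reads none of the 45 fold changes did. For XDH this says little, because its counting error is wide. Its value for the combined treatment against vehicle went from 0.16 to 0.97 with the pseudocount of 0.1 and to 2.61 with reads. Median-ratio scaling moved 14 of the 54 values, and the same scaling over all genes above 0, added after seeing the data, moved 26. The median of the 8 genes depended on scaling: for 6-MP alone it was 0.0079 with TPM, and for the combined treatment against vehicle, histidine and 6-MP it was 0.0036, -0.046 and 0.035 with median-ratio scaling and -0.078, -0.11 and -0.047 with that over all genes above 0. The construction of this scaling, a constant taken from every gene, accounts for these shifts. At a threshold of 0.5, 3, 3 and 4 genes passed in FPKM as deposited. At 1, the all-gene scaling gave 1 against 6-MP. GENCODE 29 lengths put the ratio of IMPDH2 to IMPDH1 at 2.63, 2.68, 2.74 and 7.68 and that of HPRT1 to NT5C2 at 1.09, 1.01, 1.04 and 1.47 in vehicle, histidine, 6-MP and both. With protein-coding genes as background, 4.22%, 3.55% and 3.81% passed the threshold of 1 in the 3 combined comparisons. Depth limited XDH, at 1 to 11 reads.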
